A study of Glycine max with 12 samples.

Results

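Soybean leaves from plots with velvetleaf and buckwheat were compared with leaves from weed-free plots of the same season, in 2008 and in 2009. These are 4 of the 12 libraries of a field study that ran over 4 seasons, chosen by the treatment and year in their labels: 1 control and 1 weedy library of 2008, and 1 of each of 2009. All 4 came from the cultivar AG1631, grown near Brookings to the stage named V3 in rows that were 76 cm apart if a label field named after read files is read as row spacing, and each library pooled newly unfolded trifoliates shorter than 2 cm from 1 plot, with 8 or more plants sampled. The weeds were a natural stand of about 300 plants per square metre in 2008 and of about 48 in 2009. The control plot of 2008 was sprayed with S-metolachlor at 1.9 L per hectare on May 22, and that of 2009 with sethoxydim at 1.8 L per hectare. Leaves were sampled on June 23 in 2008 and June 25 in 2009, and the label of the 2009 control dates its spraying to June 26, a day that falls after the sampling. The seasons also differed in rain, 12.4 cm by sampling in 2008 and 9.9 cm in 2009, and in temperature at sampling, 23.9 °C and 27.2 °C. Presence of weeds and treatment with herbicide differ together between the groups and cannot be told apart.

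A crop seedling senses neighbouring plants before they shade it, because green leaves reflect far-red light, which shifts the plant's phytochromes to their inactive form and frees growth-promoting transcription factors of the PIF family. Neighbours also compete for water and nutrients, and they change the humidity, temperature and microbes around the leaf. Plants balance growth against defence, with salicylate signalling acting through regulators such as PAD4 and WRKY70 and growth acting largely through auxin, gibberellin, ribosomes and the cell cycle. A trifoliate leaf that has only just opened is still dividing and expanding, so its RNA holds transcripts of both growth and photosynthesis.

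The values are log2 FPKM, which scale fragments by transcript length and library size, for 30456 genes that passed a filter on low values. Every library had been brought to the same set of values, from 0 to 13.50 with a median of 3.22, so a shift shared by most genes cannot be seen, and a value near 0 may be a low or floored estimate. The sequencing depth is not known. Genes carry the name of their Arabidopsis match, and where soybean has several closely similar copies of a gene, their separate levels are uncertain. In bulk leaf RNA fewer cells of a type and less RNA per cell cannot be told apart. The labels call the libraries biological replicates, and the p-values below measure only the spread between plots.

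The genes for which both seasons showed a clear difference were few. The correlation of control and weedy levels across genes was 0.98 in 2008 and 0.962 in 2009, against 0.827 to 0.878 for a library of 2008 with a library of 2009. The difference between weedy and control had an SD across genes of 0.32 in 2008 and 0.45 in 2009, and a median size of 0.16 and 0.20. For comparison, 2 plots of the same treatment in 2010 or 2011 differed with an SD of 0.28 to 0.44 across genes. By the same label field those 2 plots also differed in row spacing, so that SD holds spacing as well as plot. In 2008 161 genes were at least 2-fold higher and 140 at least 2-fold lower in the weedy plot, and in 2009 the numbers were 625 and 444. The pair with about 300 weeds per square metre thus held fewer 2-fold differences than the pair with about 48.

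The 2 pairs agreed in direction for 17552 genes, which is 57.6%. Across genes the differences of 2008 and 2009 had a Pearson correlation of 0.16 and a Spearman correlation of 0.21, given as a description, since genes are not independent and all share the same 4 libraries. Of all genes 8434 (27.7%) were higher in the weedy library of both pairs and 9118 (29.9%) were lower in both. At least 2-fold differences were seen in both pairs for 25 genes on the higher side (0.0821%) and 27 on the lower side (0.0887%), while 38 genes were 2-fold apart in opposite directions, 18 of them higher in 2008 and 20 lower in 2008.

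**Figure D1:**
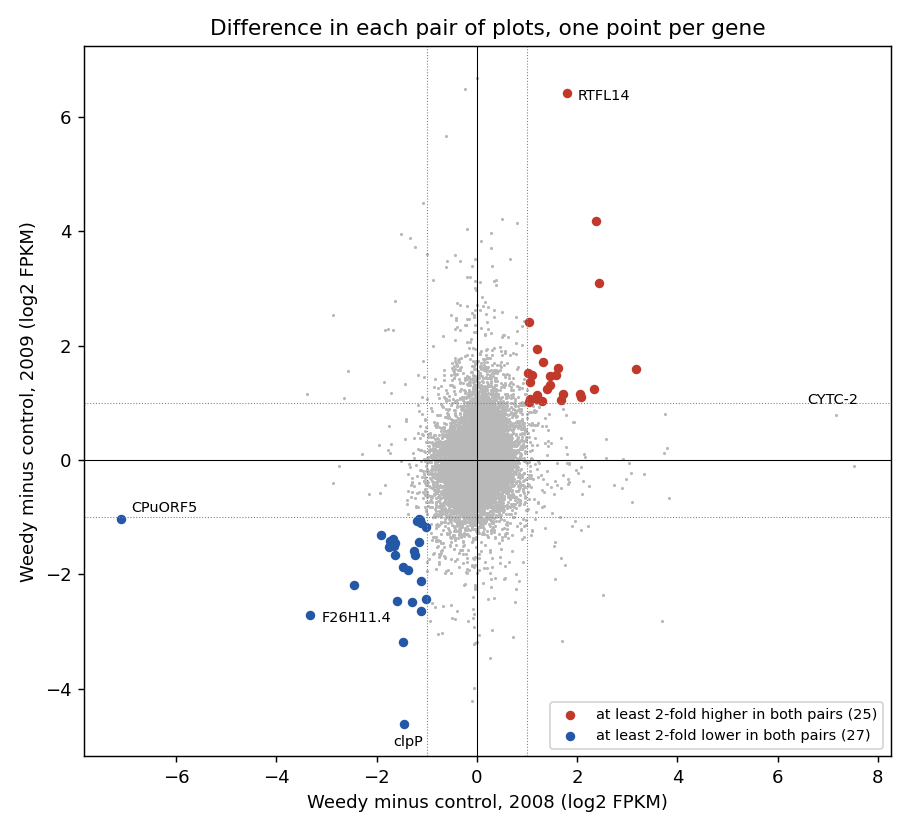
Weedy minus control in 2008 (horizontal) against 2009 (vertical), in log2 FPKM, with each point a gene and dotted lines at a 2-fold difference. The cloud is wider in 2009 than in 2008, and the 25 red and 27 blue genes are those at least 2-fold apart in the same direction in both pairs.

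No gene passed an adjusted p of 0.05 in limma for weedy against control over both pairs (0 higher and 0 lower, 0% of the genes tested, the lowest adjusted p being 0.107). The fit used the residual spread of all 12 libraries, with the season as a term and a separate weed effect for 2010 and for 2011. An unadjusted p under 0.05 was reached by 1335 higher genes (4.38%) and 1332 lower genes (4.37%). That total of 2667 became 1510 without the control of 2009 and 1513 without the weedy library of 2009, and it was 706 when the plots were not paired by season. Without the pairing and the shared spread, an exact permutation test of 2 against 2 libraries cannot give a two-sided p below 0.333. The genes below are therefore described by their levels and differences, and none of them is called changed.

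Among the genes of smallest p on the higher side were a MAP kinase kinase, a dirigent-like protein and a leucine-rich repeat kinase. MKK2 Glyma15g18860, a MAP kinase kinase that in Arabidopsis acts in cold, salt and pathogen signalling, stood at a log2 level of 1.28 in control and 2.25 in weedy leaves in 2008, and at 2.63 and 3.77 in 2009. Its mean log2 difference was 1.06 ± 0.10, with the lowest adjusted p of all genes, 0.107 in limma. Here and below, the value after ± is the SE of the limma fit. That SE rests on the residual spread of all libraries, so it does not by itself measure how closely the 2 pairs agreed. The level of MKK2 also differed between the years, so that the 2009 control lay above the 2008 weedy library. F22C12.8 Glyma09g33140, a dirigent-like protein of a family that guides the coupling of phenolic units, went from 1.68 to 3.13 in 2008 and from 4.10 to 5.42 in 2009, a mean difference of 1.39 ± 0.16 with an adjusted p of 0.201. When either weedy library of 2010 was left out of the shared spread, its adjusted p became 0.0300 and 0.0298. K15I22.4 Glyma02g43150, a leucine-rich repeat kinase, stood at 2.60 and 3.41 in 2008 and at 2.57 and 3.86 in 2009, so that both weedy libraries lay above both controls. Its mean difference was 1.06 ± 0.14 (adjusted p = 0.219, limma).

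The genes named WRKY70, DMR6 and PAD4, which act in salicylate responses in Arabidopsis, were higher in the weedy library of each pair. WRKY70 Glyma04g40130, a transcription factor that in Arabidopsis promotes salicylate-dependent and restrains jasmonate-dependent genes, went from 1.61 to 3.06 in 2008 and from 3.91 to 5.38 in 2009. The log2 differences of 1.45 and 1.47 were nearly equal although the starting levels were not (mean 1.46 ± 0.22, adjusted p = 0.233, limma). All 5 soybean genes named WRKY70, looked at after their values were seen, were higher in both pairs, with medians of 0.43 in 2008 and 0.83 in 2009. Of these copies Glyma06g14720 was nearly level in 2008, at 1.70 and 1.71, and went from 3.26 to 4.29 in 2009. DMR6 Glyma06g14190 encodes an oxygenase that in Arabidopsis hydroxylates salicylate and is needed for susceptibility to downy mildew. It stood at 3.26 and 4.46 in 2008 and at 4.50 and 6.45 in 2009, a mean difference of 1.57 ± 0.28 (adjusted p = 0.274, limma). The second copy, Glyma04g40600, named after its values were seen, had 3.05 and 3.98 in 2008 and 5.51 and 6.87 in 2009. PAD4 Glyma04g38700, a lipase-like partner of EDS1 in basal immunity and also named after its values were seen, went from 2.05 to 2.43 and from 2.01 to 3.45.

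**Figure D2:**
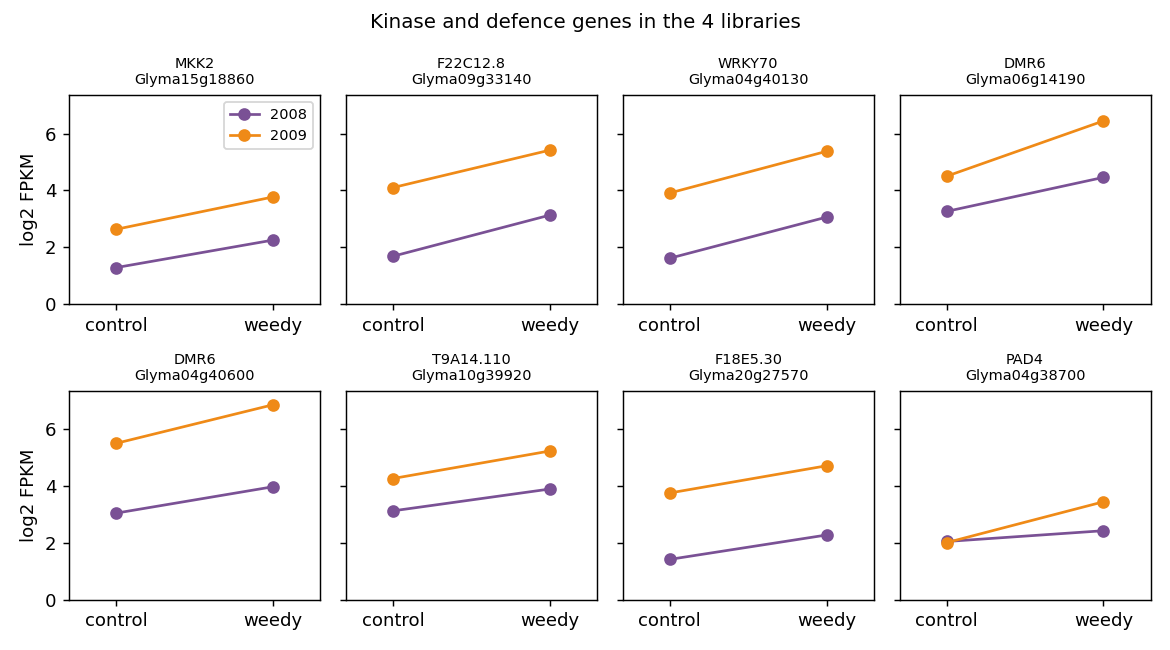
Log2 FPKM of 8 kinase and defence genes in the control and weedy library of 2008 (purple) and 2009 (orange), each point 1 library. Every line slopes upward from control to weedy, and for 7 of the genes the whole 2009 pair lies above the 2008 control.

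The wider set of defence genes leaned the same way by small amounts. Of 242 genes of salicylate signalling and resistance, 112 (46.3%) were higher in both pairs and 40 (16.5%) lower in both, against 27.7% and 29.9% of all genes. The list medians were 0.08 in 2008 and 0.10 in 2009, against 0.00 and -0.01 over all genes. In 40 members both weedy libraries lay above both controls (6.77% of all genes did so), and in 7 both lay below (8.93% of all genes). An unadjusted p under 0.05 was reached by 20 higher members (8.26%, against 4.38% of all genes) and 8 lower ones (3.31%, against 4.37%), and none passed the adjusted threshold. T24A18.140 Glyma08g12990, an NB-ARC resistance protein of the kind that detects pathogen effectors, went from 1.92 to 2.38 and from 2.33 to 3.02. Of 43 cysteine-rich receptor-like kinases, a list drawn up after values were seen, 23 (53.5%) were higher and 4 (9.3%) lower in both pairs, with medians of 0.15 and 0.41. The 2 with the smallest p were T9A14.110 Glyma10g39920, at 3.13 and 3.90 in 2008 and 4.27 and 5.24 in 2009, and F18E5.30 Glyma20g27570, at 1.42 and 2.28 and at 3.76 and 4.72. WRKY factors as a family of 85 did not lean: 23 (27.1%) were higher and 19 (22.4%) lower in both pairs, with medians of 0.07 and -0.03. WRKY41 Glyma16g02960, linked to pathogen responses in Arabidopsis, was among the higher, at 1.80 and 2.29 and at 2.82 and 3.55. Jasmonate genes, which serve defence against chewing insects, were also balanced, with 20 of 69 (29%) higher and 22 (31.9%) lower in both pairs. LOX3 Glyma16g01070, a lipoxygenase at the start of jasmonate synthesis, stood at 3.08 and 3.54 and at 2.68 and 3.15.

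Small peptide genes that shape leaves were among those at least 2-fold apart in both seasons. RTFL14 Glyma10g03020, of a family of short peptides whose overexpression in Arabidopsis reduces cell proliferation in leaves, had the largest mean difference on the higher side, 4.11 ± 0.89 (adjusted p = 0.425, limma). Its levels were 4.86 and 6.66 in 2008 and 0.31 and 6.73 in 2009, so that most of that mean came from a control near 0. ROT4 Glyma19g36720, of the same peptide family and named after its values were seen, differed in the other direction, from 2.16 to 0.51 and from 1.74 to 0.24. EPF1 Glyma13g37490, a secreted peptide that limits stomatal density in Arabidopsis and also named after its values were seen, went from 2.13 to 3.70 and from 0.27 to 1.75. RTFL14 and ROT4 thus differed in opposite directions, with each pair of EPF1 on the side of RTFL14.

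Other genes on the higher side had less familiar roles. Glyma03g10420, matched to AT3G09310, had levels of 4.88 and 6.20 in 2008 and 3.69 and 5.40 in 2009, a mean difference of 1.52 ± 0.19 (adjusted p = 0.219, limma). F23N11.4 Glyma12g13250, a protein kinase, went from 0.55 to 2.89 and from 4.37 to 5.61. SQD2 Glyma03g14200, an enzyme of sulfolipid synthesis in chloroplast membranes, went from 4.45 to 6.17 and from 1.32 to 2.47, and its SE of 0.73 on a mean of 1.44 shows how widely plots of the other seasons varied for it. F11C18.13 Glyma20g11740 stood at 1.74 and 2.95 and at 3.10 and 4.24, and Glyma13g40590, which carries no Arabidopsis match, at 1.28 and 2.35 and at 3.11 and 3.95. The deposited table gives neither a description.

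Genes on the lower side included a repressor of ethylene-responsive genes. ERF3 Glyma14g05470, a transcription factor with a repressor motif in Arabidopsis, stood at 3.56 in control and 2.31 in weedy leaves in 2008, and at 3.88 and 2.29 in 2009. Both weedy libraries lay below both controls, with a mean difference of -1.42 ± 0.20 (adjusted p = 0.219, limma). WPP2 Glyma04g04580, a small protein of the nuclear envelope, went from 3.67 to 2.20 and from 4.17 to 0.97, a mean difference of -2.33 ± 0.35 (adjusted p = 0.233). Its only other copy in the table, Glyma06g04660, went from 3.11 to 2.00 and from 4.31 to 1.66, named after its values were seen. K21P3.18 Glyma19g41780, a GATA transcription factor, had 4.35 and 3.69 in 2008 and 4.60 and 3.97 in 2009, a small but even difference of -0.64 ± 0.10. AT3G15680 Glyma04g07270, a zinc finger protein, had 4.07 and 2.69 and 5.11 and 4.17. MPA22.2 Glyma13g23920 stood at 3.21 and 2.18 and at 3.72 and 2.89, and MRG7.21 Glyma13g39300 at 3.51 and 2.56 and at 3.35 and 2.61. For both, each weedy library lay below each control.

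The largest differences on the lower side rested on single values near 0. CPuORF5 Glyma05g28970, a short reading frame conserved in the leader of a longer message, had 7.62 in control and 0.52 in weedy leaves of 2008 but 9.37 and 8.35 in 2009. Reads of such a frame may have been shared with its host gene, which was not tested. The gene model Glyma02g04380, matched to the plastid-encoded protease subunit clpP, had 5.62 and 4.16 in 2008 and 4.87 and 0.25 in 2009. A pair of genes described by a domain named after ribosomal protein S5 were lower more evenly: F20L16.100 Glyma05g34350 had 6.79 and 5.18 and 7.18 and 4.71, and F7B19.13 Glyma08g05290 had 6.32 and 5.19 and 6.53 and 4.43. T19D16.22 Glyma07g31160 went from 4.12 to 2.75 and from 3.57 to 1.65. Counted on the log2 of the linear value plus 1, which dampens low levels, the genes at least 2-fold apart in both pairs were 14 higher and 17 lower. Among genes with a mean log2 level of at least 2 they were 20 and 11.

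Genes of light sensing were mostly higher in weedy leaves, by little. Of 94 light and shade genes 48 (51.1%) were higher in both pairs and 14 (14.9%) lower, against 27.7% and 29.9% of all genes. The list medians were 0.08 in 2008 and 0.12 in 2009. An unadjusted p under 0.05 was reached by 11 higher members (11.7%, against 4.38% of all genes) and 0 lower ones (against 4.37%). PIL1 Glyma10g27910, matched to an Arabidopsis gene that responds rapidly to shade, went from 4.25 to 4.68 in 2008 and from 4.26 to 5.43 in 2009. The controls of both years were nearly equal and both weedy libraries lay above them, with a mean difference of 0.80 ± 0.21 (adjusted p = 0.473, limma). PIF3 Glyma19g40980, which binds active phytochrome, had 2.72 and 3.38 and 4.14 and 4.93. The 6 genes named PIF3, gathered after values were seen, were mixed, with 2 higher in both pairs and 2 lower in both. A pair of chloroplast proteins named for early induction by light, ELIP1 Glyma20g28890 and ELIP1 Glyma10g38910, were lower in both pairs, at 11.23 and 11.01 and at 10.82 and 10.32 for the first, and at 10.28 and 10.22 and at 9.58 and 9.20 for the second.

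Clock and flowering genes had the same tendency. Of 66 members 33 (50%) were higher in both pairs and 11 (16.7%) lower, against 27.7% and 29.9% of all genes. The list medians were 0.08 and 0.23. There were 8 higher members (12.1%, against 4.38% of all genes) and 0 lower ones (against 4.37%) with an unadjusted p under 0.05. CDF3 Glyma04g33410, a DOF factor that delays flowering in Arabidopsis, went from 4.0 to 4.39 and from 2.54 to 3.23. LHY Glyma19g45030, a morning component of the clock, went from 4.60 to 5.04 and from 3.93 to 4.58. Of the 4 genes named LHY, gathered after values were seen, 3 were higher in both pairs, and the fourth, Glyma07g05410, was level in 2008 at 5.43 and 5.42. Labels give the day of sampling but not the hour, so the part of the time of day in these levels was not tested.

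Genes of photosynthesis were higher in the weedy leaves, above all in 2009. Of 137 members 96 (70.1%) were higher in both pairs and 9 (6.57%) lower, against 27.7% and 29.9% of all genes. The list medians were 0.09 in 2008 and 0.57 in 2009. An unadjusted p under 0.05 was found for 20 higher members (14.6%, against 4.38% of all genes) and 1 lower one (0.73%, against 4.37%). LHB1B1 Glyma16g27990, a light-harvesting protein of photosystem II, had 8.08 and 8.63 in 2008 and 6.87 and 8.54 in 2009. PSBW Glyma19g34410, a small subunit of the same photosystem, had 7.88 and 8.23 and 7.26 and 7.95. In both genes the 2009 control was the lowest of the 4 libraries. The 33 defining leaf markers, light-harvesting and Rubisco small subunit genes that are also counted in this list, were all above 0 in these libraries, and 25 were higher and 1 lower in both pairs. Among them CAB3 Glyma09g07310 had 5.76 and 6.17 and 4.16 and 5.55, and LHCB4.3 Glyma18g03220 had 7.54 and 7.71 and 4.81 and 5.40. Their summed FPKM was 41150 in control and 42410 in weedy leaves of 2008, and 23510 and 31450 in 2009. With 1 control library a year, season and plot cannot be told apart in that sum, and its part in the other 2009 differences was not tested. Across seasons the list median had no fixed sign, at -0.27 in 2010 and 0.47 in 2011.

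Secondary-wall genes taken as markers of stem or petiole were present in all 4 libraries, and the tissue that they came from was not tested. Their lowest member stood at a log2 level of 0.58 to 1.07 and their highest at 4.37 to 5.28, against a median of 3.22 over all values. The 12 secondary-wall cellulose synthase genes summed to an FPKM of 93.88 and 89.75 in 2008 and of 166.5 and 124.7 in 2009. Of these genes 8 (66.7%) were lower and 1 (8.33%) higher in both pairs, against 29.9% and 27.7% of all genes. IRX1 Glyma08g12400 was the clearest, at 2.56 and 1.24 and at 4.70 and 4.05, while IRX1 Glyma10g33300 had 4.37 and 4.71 and 3.01 and 3.23. The list of nodule and seed proteins found 0 members. Because lists rest on Arabidopsis matches and keywords, that does not show that such genes were absent.

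**Figure D3:**
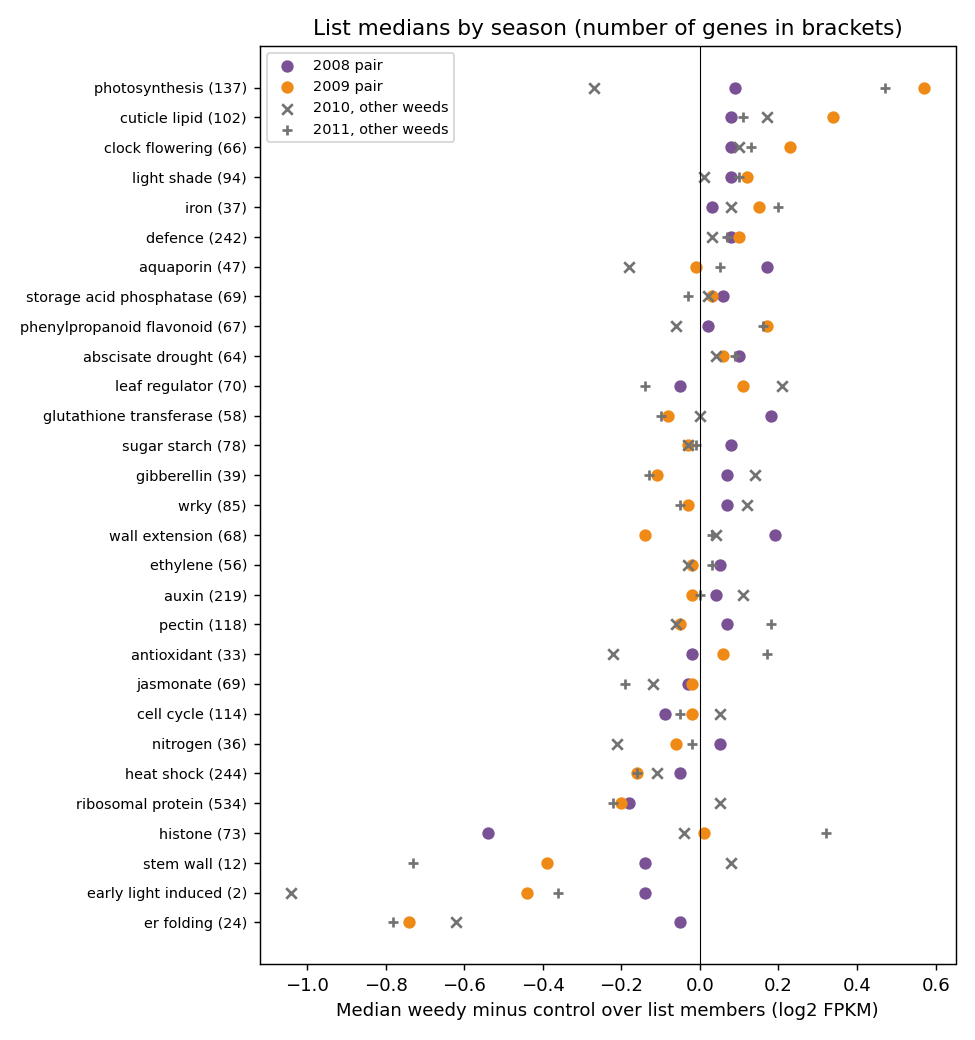
Median log2 difference between weedy and control over the members of each list, for the 2008 pair (purple), the 2009 pair (orange) and, in grey, 2010 and 2011. Photosynthesis lies at 0.09 and 0.57 in 2008 and 2009, ribosomal proteins at -0.18 and -0.20, and the histones at -0.54 and 0.01, while most other medians lie within 0.2 of zero.

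Ribosomal protein genes were mostly lower in both pairs, by small amounts. Of 534 genes 391 (73.2%) were lower in both pairs and 42 higher, against 29.9% and 27.7% of all genes. The medians were -0.18 in 2008 and -0.20 in 2009, and in 109 members both weedy libraries lay below both controls (8.93% of all genes). An unadjusted p under 0.05 was reached by 47 lower members (8.8%, against 4.37% of all genes) and 4 higher ones (0.749%, against 4.38%). None passed the adjusted threshold. MRPL11 Glyma11g37420, of the large subunit of the mitochondrial ribosome, went from 2.79 to 1.97 and from 3.80 to 2.46, a mean difference of -1.08 ± 0.19 (adjusted p = 0.271, limma). In the other direction the gene model Glyma03g03680, matched to plastid rps2, went from 3.42 to 4.46 and from 3.14 to 4.16. The sign of the list median varied by season, at 0.05 in 2010 and -0.22 in 2011.

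Histone genes, which are transcribed as cells copy their DNA, were lower in the weedy plot of 2008 and mixed in 2009. Of 73 members 66 were below control in 2008, with a median of -0.54, and 36 in 2009, with a median of 0.01. In both pairs 32 (43.8%) were lower and 3 (4.11%) higher, against 29.9% and 27.7% of all genes. Histone gene T12M4.9 Glyma07g32360 was the clearest, at 4.71 and 3.24 in 2008 and 6.53 and 4.65 in 2009, a mean difference of -1.68 ± 0.26 (adjusted p = 0.233, limma). HTA10 Glyma01g02720, a histone H2A, had 7.25 and 6.32 and 8.91 and 8.09. In both genes the 2009 libraries exceeded the 2008 control or came close to it, so the pairs have to be read within their year. Of 114 cell cycle genes 27 (23.7%) were higher and 40 (35.1%) lower in both pairs, with medians of -0.09 and -0.02. CYCA2;4 Glyma07g03830, a cyclin of DNA replication and mitosis, went from 3.04 to 2.20 and from 5.50 to 5.18, and CYCH;1 Glyma17g29640, a cyclin of a kinase-activating complex, went from 3.29 to 3.64 and from 3.24 to 3.74.

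Auxin genes did not lean as a whole, but the SAUR genes did in 2009. Of 219 auxin genes 62 (28.3%) were higher and 55 (25.1%) lower in both pairs, against 27.7% and 29.9% of all genes. The list medians were 0.04 and -0.02. SAUR genes are small early auxin-induced genes tied to cell expansion, and all 95 were gathered after values were seen. Of these 17 (17.9%) were higher and 34 (35.8%) lower in both pairs, and the medians were 0.05 in 2008 and -0.36 in 2009. There were 15 lower members (15.8%, against 4.37% of all genes) and 3 higher ones (3.16%, against 4.38%) with an unadjusted p under 0.05. F19H22.7 Glyma06g43480 went from 1.32 to 0.52 and from 2.42 to 0.90, and T3A4.7 Glyma08g00640 differed in the other direction, from 2.15 to 3.35 and from 1.74 to 2.80. F26H11.4 Glyma12g03890, named after its values were seen, went from 3.83 to 0.50 and from 2.95 to 0.24. Most SAUR genes have close copies in tandem, and these levels are uncertain where reads were divided.

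**Figure D4:**
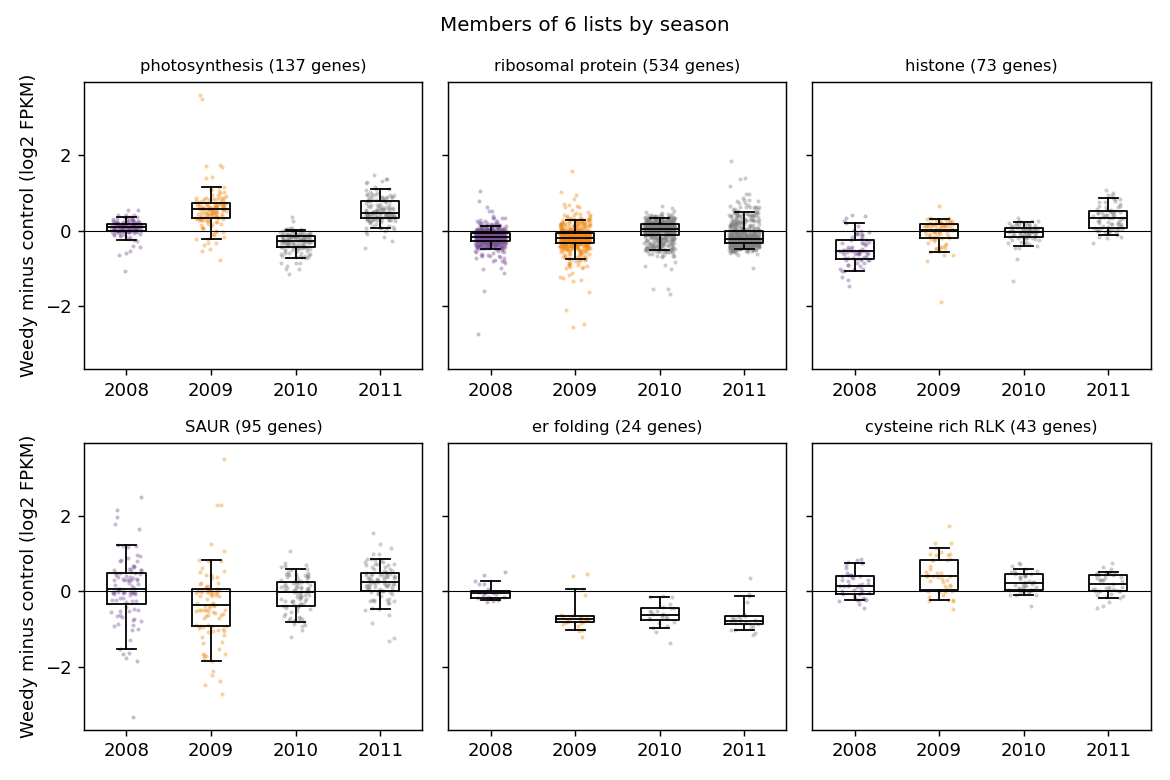
Weedy minus control in log2 FPKM for each member of 6 lists in each season, with boxes from the lower to the upper quartile, a line at the median and whiskers from the 5th to the 95th percentile. Purple and orange points are the 2008 and 2009 pairs and grey points are 2010 and 2011. Ribosomal proteins lie mostly below zero in 2008 and 2009, histones in 2008 and SAUR genes in 2009, while endoplasmic reticulum folding genes lie near zero in 2008 and below it in the other seasons.

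Chaperones that fold secreted proteins in the endoplasmic reticulum were lower in 2009 and nearly level in 2008. Of 24 members 17 (70.8%) were lower and 3 (12.5%) higher in both pairs, against 29.9% and 27.7% of all genes. The list medians were -0.05 and -0.74. An unadjusted p under 0.05 was found for 9 lower members (37.5%, against 4.37% of all genes) and 2 higher ones (8.33%, against 4.38%). BIP1 Glyma05g36620, the main HSP70 of that compartment and named after its values were seen, had 6.15 and 5.91 in 2008 and 9.07 and 7.85 in 2009. Both 2009 libraries lay above both 2008 libraries, in the year with 27.2 °C at sampling against 23.9 °C. All 4 genes named BIP1 or BIP2 had a median of -0.09 in 2008 and -0.87 in 2009. CRT3 Glyma11g13460, a calreticulin, went from 5.02 to 4.73 and from 6.52 to 5.71, and CRT3 Glyma09g38410 differed in the other direction, from 4.46 to 4.90 and from 6.27 to 6.73. The part of temperature in these levels was not tested.

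Heat shock genes were more often lower than higher. Of 244 members 104 (42.6%) were lower and 38 (15.6%) higher in both pairs, against 29.9% and 27.7% of all genes, with medians of -0.05 and -0.16. An unadjusted p under 0.05 was reached by 31 lower members (12.7%, against 4.37% of all genes) and 9 higher ones (3.69%, against 4.38%). HSP60 Glyma10g33680, a mitochondrial chaperonin, went from 6.06 to 5.64 and from 7.63 to 6.61. HSP70 Glyma18g52480 differed in the other direction, from 2.39 to 3.08 and from 2.21 to 3.34, with both weedy libraries above both controls. Among 67 small heat shock proteins, gathered after values were seen, the medians were -0.02 in 2008 and -0.40 in 2009. HSP17.6II Glyma14g11420, a cytosolic small heat shock protein named after its values were seen, had 4.16 and 3.24 in 2008 and 7.28 and 4.48 in 2009.

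The difference between the seasons was tested for each gene as the 2009 effect minus the 2008 effect. No gene passed the adjusted threshold in limma (0 genes, 0%, lowest adjusted p 0.0795), and an unadjusted p under 0.05 was reached by 904 genes above (2.97%) and 736 below (2.42%). Here each of the 4 libraries is alone in its group, and it is assumed to vary like the plots of 2010 and 2011. Without either weedy library of 2010 3 genes passed, 2 above and 1 below, among them Glyma07g39540 with an adjusted p of 0.0380 and 0.0372. Glyma07g39540, which has no Arabidopsis match, had 2.57 and 3.34 in 2008 and 4.67 and 2.18 in 2009, a contrast of -3.26 ± 0.25. The other 2, named after their values were seen, were ATMGL Glyma13g10360, a methionine-degrading enzyme at 3.05 and 2.64 and at 2.93 and 5.38, and Glyma06g08070, at 2.86 and 0.00 and at 0.00 and 2.53.

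Nitrate assimilation stood out among the genes that went opposite ways. NIR1 Glyma07g33570, nitrite reductase, the chloroplast enzyme that makes ammonium from nitrite, went from 4.72 to 5.49 in 2008 and from 3.17 to 1.18 in 2009. The contrast of -2.76 ± 0.34 had an adjusted p of 0.258 in limma. The second copy, Glyma02g14910, named after its values were seen, went from 5.26 to 6.21 and from 3.02 to 1.67. Weedy leaves were thus the highest of the 4 libraries in 2008 and the lowest in 2009 for both copies, and both were also lower in 2010 and 2011, with differences of -2.08 in 2010 and -0.96 in 2011 for the first. A nitrate reductase gene, Glyma06g11430, had the same order, with 3.67 and 4.55 and with 2.82 and 1.61, and was named after its values were seen. Over the whole nitrogen list, which includes these 3 genes, 12 of 36 (33.3%) were higher and 11 (30.6%) lower in both pairs, against 27.7% and 29.9% of all genes. NRT1.1 Glyma11g03430, a nitrate transporter and sensor, was higher in both, at 2.47 and 3.29 and at 1.20 and 2.13. ASNS Glyma11g38130, an asparagine synthetase, was lower in both, at 4.30 and 3.95 and at 4.85 and 4.66.

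Among the further genes of smallest p in the contrast of the years, some had a single library that stood apart. MQL5.25 Glyma17g34790, a MYB-like factor, had 4.26 and 3.38 in 2008 and 1.19 and 4.34 in 2009, a contrast of 4.03 ± 0.37 (adjusted p = 0.136, limma). T30D6.8 Glyma02g39180 had 4.31 and 3.95 and 0.36 and 2.08, and T14C9.110 Glyma06g07820 had 2.23 and 0.52 and 1.82 and 3.0. The gene model Glyma14g34080, matched to plastid psbA, had 2.87 and 2.44 and 1.38 and 4.96. On the other side F22D22.4 Glyma15g06580 had 1.41 and 1.98 and 3.07 and 1.00. CYTC-2 Glyma14g34870, a cytochrome c of the respiratory chain, had 1.00 in the 2008 control against 8.17, 7.09 and 7.88 in the other 3 libraries, so that its contrast rests on that library.

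**Figure D5:**
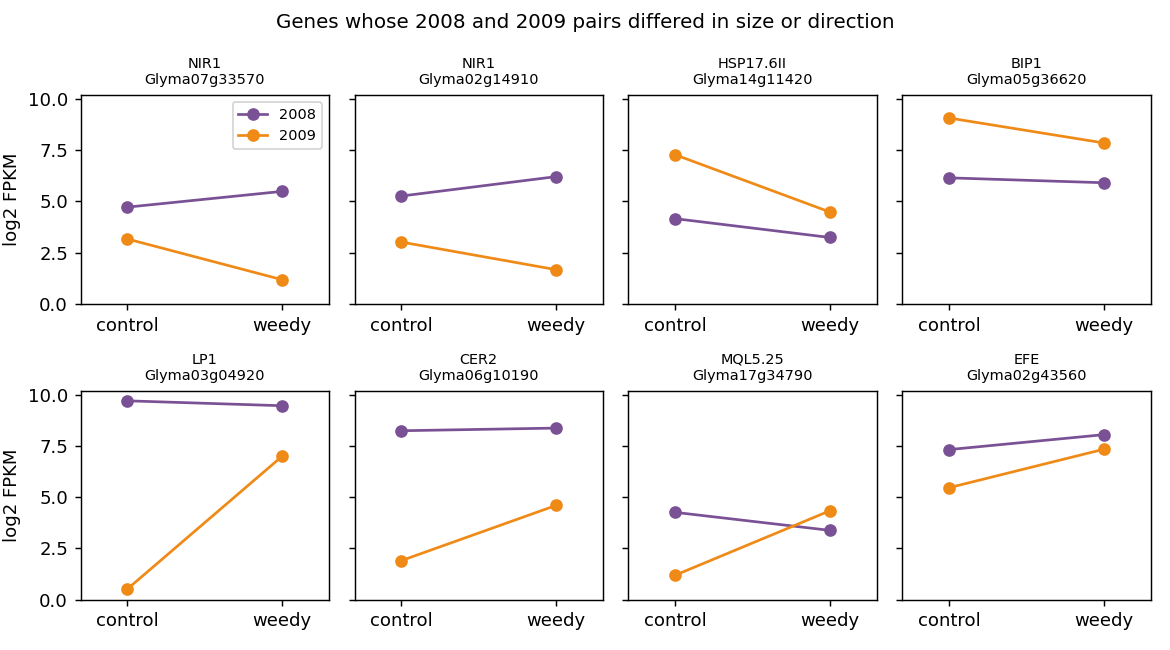
Log2 FPKM of 8 genes in the control and weedy library of 2008 (purple) and 2009 (orange), each point 1 library. The lines of both NIR1 genes and of MQL5.25 cross in direction between the years, while LP1 and CER2 are nearly level in 2008 and steep in 2009.

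Genes of the leaf surface belonged to those that differed mainly in 2009. Of 102 cuticle and lipid transfer genes 48 (47.1%) were higher and 16 (15.7%) lower in both pairs, against 27.7% and 29.9% of all genes. The list medians were 0.08 and 0.34. LP1 Glyma03g04920, a lipid transfer protein that carries cuticle lipids, had 9.70 and 9.46 in 2008 and 0.51 and 7.0 in 2009, and CER2 Glyma06g10190, a factor of wax elongation, had 8.24 and 8.37 and 1.90 and 4.60. Both were named after their values were seen, and in both the 2009 control was the lowest library. By the smallest p the list was led by lipid transfer genes with even differences, Glyma05g09160 at 4.19 and 4.92 and at 5.83 and 6.30, and F4I1.11 Glyma08g25020 at 4.52 and 4.93 and at 3.75 and 4.21.

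Cell wall loosening genes were mostly higher in 2008 and mostly lower in 2009. Of 68 expansins and xyloglucan-modifying enzymes 33 were higher in 2008 and lower in 2009, and 5 had the opposite order. Of all 30456 genes 6682 and 6183 did so. The list medians were 0.19 and -0.14. EXPA1 Glyma05g00950, an expansin named after its values were seen, had 0.24 and 2.32 in 2008 and 1.29 and 0.07 in 2009. ATEXLB1 Glyma17g16210, an expansin-like protein, was higher in both, at 3.21 and 3.83 and at 1.72 and 2.82, and the xyloglucan enzyme T1J8.5 Glyma13g20450 was lower in both, at 2.02 and 1.21 and at 4.10 and 2.69. Of 118 pectin genes 37 (31.4%) were higher and 30 (25.4%) lower in both pairs, against 27.7% and 29.9% of all genes. MDC12.15 Glyma05g02890, a pectin lyase-like enzyme, went from 4.49 to 5.17 and from 2.65 to 3.64, and AT3G43270 Glyma15g20550, of the pectin methylesterase family, from 4.76 to 5.08 and from 1.93 to 3.07.

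Glutathione transferases, which conjugate herbicides and other foreign compounds, are given because the control plots were sprayed. Of 58 members 19 (32.8%) were higher and 9 (15.5%) lower in the weedy library of both pairs, against 27.7% and 29.9% of all genes. The list medians were 0.18 in 2008 and -0.08 in 2009. Another 24 were higher in 2008 and lower in 2009, as were 6682 of all 30456 genes. GSTU8 Glyma03g16600 went from 1.05 to 1.77 and from 2.63 to 3.53, a mean difference of 0.81 ± 0.13 (adjusted p = 0.233, limma). GSTU7 Glyma02g33780 went from 2.62 to 3.31 and from 2.31 to 3.39. In neither gene was a control library above the weedy library of its year.

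The remaining hormone and stress groups differed by little. Ethylene genes had 18 of 56 (32.1%) higher and 17 (30.4%) lower in both pairs, against 27.7% and 29.9% of all genes. EFE Glyma02g43560, which makes ethylene, was the clearest on the higher side at 7.32 and 8.05 and at 5.46 and 7.34. Gibberellin genes had 10 of 39 (25.6%) higher and 9 (23.1%) lower, and F1M20.35 Glyma03g28740, a gibberellin-regulated peptide, had 7.86 and 8.20 and 3.01 and 6.16. Its relative T26I20.6 Glyma10g40580 had 5.04 and 4.02 and 7.67 and 7.56. Abscisate and drought genes had 21 of 64 (32.8%) higher and 11 (17.2%) lower. Among these, 2 LEA glycoproteins differed in opposite directions, Glyma18g45080 from 2.86 to 3.83 and from 2.40 to 2.66, and Glyma12g09880 from 1.29 to 1.03 and from 2.34 to 1.01.

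Metabolic and transport groups were likewise mixed. Acid phosphatases include leaf storage proteins of legumes and enzymes that release phosphate. Of 69 members 26 (37.7%) were higher and 19 (27.5%) lower in both pairs, against 27.7% and 29.9% of all genes. PAP10 Glyma12g01000 had 3.25 and 3.97 and 3.20 and 3.68. PAP3 Glyma04g15850 had 3.70 and 4.17 and 2.47 and 3.15. Both phosphatase genes were higher in each weedy library than in its own control. Sugar and starch genes had 24 of 78 (30.8%) higher and 16 (20.5%) lower. Sucrose synthase SuS1 Glyma15g20180 went from 2.59 to 2.17 and from 4.59 to 3.65, and starch synthase SSIII-1 Glyma15g11500 from 4.70 to 4.88 and from 2.57 to 3.16. Iron genes had 13 of 37 (35.1%) higher and 6 (16.2%) lower. FER4 Glyma11g35610, an iron-storing ferritin, was level in 2008 at 5.44 and 5.47 and higher in 2009 at 2.17 and 3.66. The ferric reductase-like gene F10B6.13 Glyma05g26970 had 4.47 and 4.87 and 2.58 and 2.91, an even difference on levels that were far apart between the years.

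Aquaporins, the water channels of cell membranes, had 17 of 47 (36.2%) higher and 8 (17%) lower in both pairs, against 27.7% and 29.9% of all genes. TIP4;1 Glyma04g08830, of the vacuole membrane, went from 1.56 to 2.59 and from 1.90 to 2.38, and PIP2;4 Glyma11g20600, of the plasma membrane, from 3.41 to 3.67 and from 3.42 to 3.84. The controls of both years were close to each other in PIP2;4, and both weedy libraries lay above them. Antioxidant genes had 9 of 33 (27.3%) higher and 8 (24.2%) lower, with APX4 Glyma14g35440 at 6.85 and 7.12 and at 5.54 and 6.28, and the superoxide dismutase gene Glyma20g12510 at 5.71 and 5.40 and at 5.59 and 5.24. Phenylpropanoid and flavonoid genes had 22 of 67 (32.8%) higher and 10 (14.9%) lower. But the 2 members of smallest p, chalcone isomerase family genes, were lower, Glyma02g05480 at 5.31 and 4.78 and at 6.49 and 6.03, and Glyma19g33940 at 5.2 and 5.09 and at 5.12 and 4.60. Leaf development regulators had 18 of 70 (25.7%) higher and 18 (25.7%) lower. INO Glyma06g10110, a YABBY factor, went from 0.94 to 1.75 and from 2.71 to 3.39, and TCP4 Glyma12g33640, which promotes the end of cell division in leaves, from 2.79 to 3.16 and from 2.97 to 3.45.

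The effect of 2008 and 2009 was also set against the mean effect of 2010, when the weed was flax at about 600 plants per square metre, and 2011, when velvetleaf grew with sunflower at about 160. The later seasons also differ in year, weed density, rain, herbicide and, for 1 plot of each treatment, row spacing, and these cannot be told apart from the weed species. No gene passed the adjusted threshold in limma (0 genes, 0%, lowest adjusted p 0.829). An unadjusted p under 0.05 was reached by 525 genes above (1.72%) and 674 below (2.21%), together 1199, a total that became 2103 without weedy replicate 2 of 2010. Among the genes with the smallest p were MKK2 Glyma15g18860, whose difference was 1.06 here, 0.14 in 2010 and 0.41 in 2011, and AT3G09310 Glyma03g10420, at 1.52, 0.23 and 0.01. AT3G25855 Glyma01g20800, a copper-binding protein, had 1.59 here, -1.11 in 2010 and -0.31 in 2011, but levels of 0.24 and 0.16 in the controls of 2008 and 2009. MYH19.120 Glyma17g00640, a GTP-binding protein, had 0.65, -0.83 and -0.39. On the other side T12M4.9 Glyma07g32360 had -1.68, 0.08 and 1.08, HTA10 Glyma01g02720 -0.87, 0.25 and 0.32, MRG7.21 Glyma13g39300 -0.84, -0.02 and 0.22, and K21P3.18 Glyma19g41780 -0.64, 0.25 and -0.05.

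In the same contrast, at an unadjusted p under 0.05, 14 of 73 histone genes lay below the later seasons and 0 above, against 2.21% and 1.72% of all genes. Of the 95 SAUR genes, a list drawn up after values were seen, 15 lay below and 1 above. Of the 25 genes at least 2-fold higher in both pairs, 18 (72%) were also higher in 2010 and 20 (80%) in 2011, against 52.3% and 46.7% of all genes, with medians of 0.16 and 0.20. Of the 27 at least 2-fold lower, 17 (63%) were lower in 2010 and 6 (22.2%) in 2011, against 47.7% and 53.3% of all genes, with medians of -0.22 and 0.33. The libraries of 2010 and 2011 were not used to pick these genes, and the later differences were small beside those of 2008 and 2009.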

How the data were processed

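Leaf RNA of 12 plots was made into TruSeq libraries and read from both ends on a HiSeq2000, per the labels' protocols. The authors deposited log2 FPKM per library, made with the Tuxedo programs per the file headers, and TopHat 1.0, Cufflinks 1.0 and Cuffdiff 1.0 appear in the submitters' processing notes. Not given in the sources used here are the genome build, the strand, the step that gave all libraries 1 distribution, and any number added before the log. The deposited log2 ratio and p-value columns were not used.

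Of 30498 entries, 39 shared 19 identifiers and were left out, and a filter (log2 of 1 or more in 3 or more libraries) kept 30456 of 30459 genes. Values were used as deposited, where the plan had assumed linear ones. The fits were made in R 4.3.3 by limma 3.58.1, with statmod 1.5.0 and the trend and robust options of eBayes, two-sided, with Benjamini-Hochberg adjustment over all genes and a threshold of 0.05. The season paired the plots: control and weedy deviations of 2008 and 2009 correlated at 0.83 across genes. The fit left 5 residual degrees of freedom, and 4 for the contrast of the years.

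The libraries, 31 gene lists (30 with members) and tests were chosen with earlier results of these data known, and 10 further lists were drawn up after values were seen. Lists rest on Arabidopsis loci, given for 29874 entries, and on keywords. Named genes are the 6 of smallest p per side, the 6 largest 2-fold differences per side with a mean of at least 3, the 2 of smallest p per list and the 4 per side of each contrast. Of the identifiers 0 matched the reference gene table. The scripts were tested on simulated data. Other settings tried were pairing, filters, log2 of the value plus 1, centring and leaving out each library.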

Additional observations from a re-analysis of the deposited data

How the results depend on the processing

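Of 95 results for single named genes, all 1922 values under 21 other settings kept their sign, and 4 of them passed the adjusted threshold where the reported value had not, those of Glyma09g33140 and Glyma07g39540 given in the report. Some of these settings could not change a sign. Leaving out a library of a later season cannot move the estimates of weedy against control or of the contrast of the years. Nor can changing only the trend and robust options. The genes were also picked for small p or large differences, so the kept signs do not measure stability. Across the leave-one-out fits, weedy against control called 0 to 2 genes (limma, adjusted), the contrast of the years 0 to 3 and the contrast with 2010 and 2011 0. The fits without a library of 2008 rest on the 2009 pair alone, and those without a library of 2009 on the 2008 pair alone. Glyma07g39540, called without a library of 2008, differed by -2.49 in the 2009 pair but by 0.77 in the 2008 pair. The 2 genes called without a weedy library of 2010 were Glyma02g41420 and Glyma09g33140. Unadjusted p under 0.05 was reached by 1510 to 3673 genes for weedy against control, 1356 to 2386 for the contrast of the years and 887 to 2103 for that with the later seasons, against 2667, 1640 and 1199.

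Without the pairing of 2008 and 2009 by season (no replicate block) these counts were 706 for weedy against control and 349 for the contrast with later seasons. With the replicate number of 2010 and 2011 as a further replicate block they were 2325, 1443 and 1076. Those numbers did not pair the plots, with correlations of -0.05 in 2010 and 0.05 in 2011. The 52 genes 2-fold apart in both pairs became 31 at a mean log2 of at least 2, 31 on the log2 of the linear value plus 1, and 54 after centring. The cause of these shifts was not tested. List medians moved by more than the SD of the list's own 2008 and 2009 medians in 22 of 839 values. That limit is wide for lists whose pairs disagree, and some settings cannot move a median. The count therefore does not measure stability. Depth is unknown, so it sets no stated limit here, and low levels are the least certain. The contrast of the years could not be fitted without a library of 2008 or 2009, nor that with later seasons in the 4 libraries alone.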
